A study of Homo sapiens with 6 samples.

Results

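Lysosomal enzymes, lysosomal membrane proteins and the subunits of the vacuolar proton pump (V-ATPase) were examined in CAL62 cells treated with erianin. The set held 61 genes, of which 37 were listed by name and 24 were the protein-coding genes whose symbols start with ATP6V. Identifiers in the count table were matched to these symbols, and 60 of the 61 had a row. The sulfatase gene IDS was not analysed here. A filter on low counts kept 55 of the members for testing, out of 12821 genes tested among 39168 Ensembl identifiers. CAL62 is an established cell line from an anaplastic thyroid carcinoma, labelled as wild type. Erianin, the compound under study, was given at 50 nM for 48 h in 3 replicate experiments, and 3 controls received the solvent DMSO for the same time. All values come from RNA sequencing of whole cultures, so more RNA per cell and a larger share of cells with that RNA cannot be told apart.

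The lysosome is the acidic compartment in which proteins, sugar chains and lipids are broken down. Its hydrolases are made in the secretory pathway and work at low pH, which the V-ATPase maintains by pumping protons. The pump has a membrane sector, V0, which carries the protons, and a cytosolic sector, V1, which hydrolyses ATP. Many lysosomal genes carry a palindromic E-box in front of their start, a site known to be bound by TFEB and TFE3, transcription factors of lysosome formation.

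The E-box was looked for in the promoters because it is the sequence feature that lysosomal genes are best known to share. RefSeq windows on GRCh38.p14, running from 250 bases before to 50 bases after the start, matched 42 of the 61 members. The core CACGTG, which reads the same on both strands, was present in 13 of the 42 (31.0%), and in 7.43% of the 27305 promoters of all genes. The longer motif GTCACGTG on either strand was in 9 of the 42 (21.4%), against 2.53% of all promoters. The palindrome TCACGTGA was in 7 (16.7%), against 1.04%. Both longer motifs contain the core. A match is a description of the letters and does not show binding. The windows of LAMP1, MCOLN1 and CTSA held 6, 2 and 2 cores, and not all of these are shown. The stretches below show the core in capitals for members of different roles, each 5′ to 3′ on the strand of its gene, with the distance from the first capital to the annotated start.
LAMP1, chr13:113297199-113297228 (+), 28 bases before the start: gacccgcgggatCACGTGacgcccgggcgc
MCOLN1, chr19:7522571-7522600 (+), 41 bases before the start: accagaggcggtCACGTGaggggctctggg
CTSA, chr20:45891298-45891327 (+), 25 bases before the start: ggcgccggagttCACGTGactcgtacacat
CTSD, chr11:1763957-1763986 (-), 47 bases before the start: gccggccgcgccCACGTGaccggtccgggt
GAA, distal site, chr17:80101493-80101522 (+), 76 bases before the start: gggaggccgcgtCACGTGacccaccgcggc
GAA, proximal site, chr17:80101538-80101567 (+), 31 bases before the start: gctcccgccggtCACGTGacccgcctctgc
NEU1, chr6:31862930-31862959 (-), 126 bases before the start: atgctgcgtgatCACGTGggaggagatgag
ATP6V0D1, chr16:67481199-67481228 (-), 59 bases before the start: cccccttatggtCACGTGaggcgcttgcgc
ATP6V1G1, chr9:114587699-114587728 (+), 58 bases before the start: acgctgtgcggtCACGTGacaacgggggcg
The LAMP1, MCOLN1, CTSA, GAA, ATP6V0D1 and ATP6V1G1 stretches hold the palindrome TCACGTGA, and the CTSD and NEU1 stretches do not.

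Reads counted on named genes ranged from 25776301 to 34107727 per library, and counts were scaled to library size (CPM) with TMM factors. DMSO replicate 3 stood apart. On log2 CPM its distance was 64.1 to DMSO replicate 1 and 62.9 to DMSO replicate 2, which lay 37.2 from each other, and the erianin libraries lay 28.17 to 29.01 apart. The main counts of members are therefore given with and without that library. CAL62 lacked most markers of thyroid follicular cells. Of 8 markers, TSHR and NKX2-1 had no count in any library and TG and SLC5A5 were under 1 CPM, while PAX8 was at 643 to 739 CPM with DMSO and at 419 to 433 CPM with erianin. Among 8 macrophage markers, which would point to a lysosome-rich cell type, TYROBP and AIF1 were at 0 in all libraries, PTPRC and LYZ were at or near 0, and the sum over the list was 2.25 to 3.30 CPM with DMSO and 3.78 to 4.98 CPM with erianin. Most of the sum was CD14, at a mean of 2.58 CPM with DMSO and 3.72 CPM with erianin, with overlapping groups. CSF1R was at 0.139 and 0.499 CPM with no overlap. It had 1, 7 and 5 counts in DMSO replicates 1 to 3 and 14, 23 and 15 in erianin replicates 1 to 3. It passed the low-count filter only through the erianin libraries, so it had to differ to be tested. It missed the threshold with all libraries (adjusted p = 0.0572, edgeR). Under the same limit it passed by DESeq2 (adjusted p = 0.0365) and without DMSO replicate 3 (adjusted p = 0.0175, edgeR).

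The set as a whole moved in both directions. With edgeR's quasi-likelihood test, 5 of the 55 tested members rose at a Benjamini-Hochberg adjusted p under 0.05, a share of 9.09% where 7.22% of all tested genes rose. Another 4 members fell (7.27%), where 7.69% of all genes fell. Both shares were near those of all genes. The increases were ATP6V1G2, CTSS, CTSK, ATP6V1A and ATP6V1E1, and the decreases were MAN2B1, GAA, CTSZ and GUSB. DEGs, which had in addition an absolute log2 fold change over 0.5, numbered 3 higher (5.37% of all genes were DEGs in that direction) and 0 lower (3.36% of all genes). By DESeq2 there were also 3 DEGs higher and 0 lower. At an unadjusted p under 0.05 the edgeR fit had 12 members higher and 8 lower without the fold threshold (21.8% and 14.5%, beside 15.3% and 15.6% of all genes). The median log2 fold change was 0.08 over the members and 0.00 over all genes.

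Without DMSO replicate 3, 16 members rose and 13 fell, beside 27.5% and 27.7% of all tested genes, so the count grew for the members as it grew for the whole table. In 19 members every erianin library was above every DMSO library, and in 10 every erianin library was below (19.5% and 19.3% of all genes). The deposited TPM columns gave another split. With limma on log2(TPM + 1), 12 of 53 members rose and 0 fell, but 17.3% of all genes rose and 2.34% fell in that fit, and the median of all genes itself stood at 0.18. With upper-quartile factors 6 rose and 2 fell, beside 9.06% and 5.90% of all genes, whose median was 0.05.

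The counts by direction differed between roles, a difference that was not tested. Of the 19 tested V-ATPase subunits 16 had a positive log2 fold change, with a median of 0.32, and 3 rose and 0 fell. Of the 31 tested hydrolases and lipid-handling proteins 21 had a negative one, with a median of -0.06, and 2 rose and 4 fell. Over all tested genes 7.22% rose and 7.69% fell. The V-ATPase median stayed positive under every scaling tried, whereas the hydrolase median was positive on log2(TPM + 1), at 0.13, which was below the median of all genes in that fit. Median GC content of the transcripts was 49.1% for the V-ATPase genes, 54.7% for the hydrolases and 50.3% for all tested genes. With each library's trend on GC content removed, the medians were 0.24 and -0.02, beside -0.03 for all genes.

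**Figure D1:**
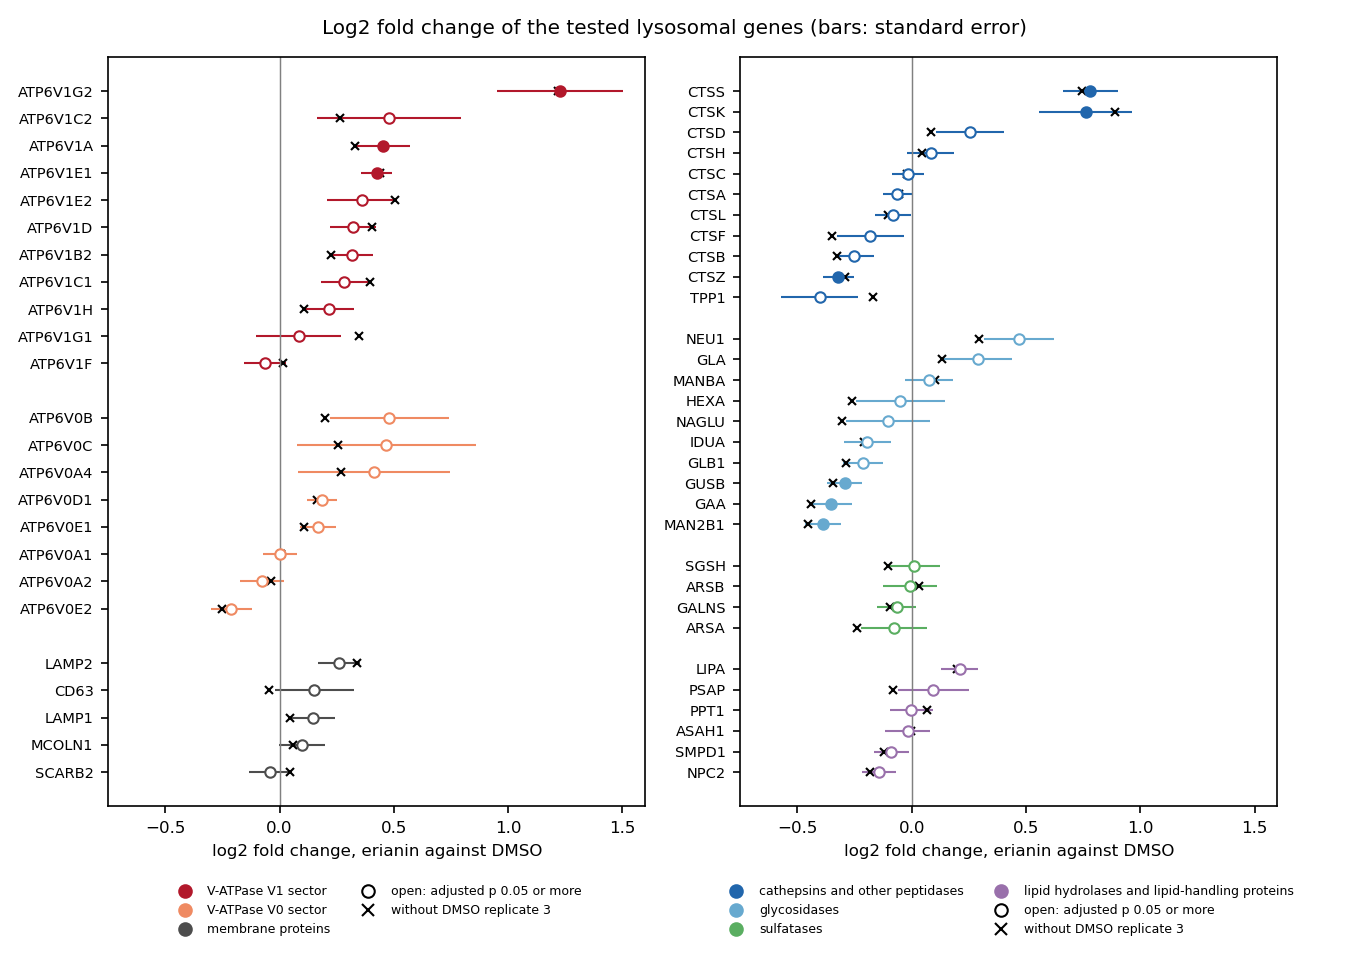
Log2 fold change of the 55 tested members, erianin against DMSO (horizontal axis), by gene and role. Circles are edgeR estimates with standard errors, filled where the adjusted p was under 0.05, and crosses are the estimates without DMSO replicate 3. In the V1 sector 10 of 11 circles lie right of 0, and among the glycosidases 7 of 10 lie left of it.

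Among the roles, the V1 sector had the highest median log2 fold change. Its summed level was 621, 615 and 660 CPM in DMSO replicates 1, 2 and 3, and 760, 737 and 753 CPM in erianin replicates 1, 2 and 3. Every erianin library was above every DMSO library, and the ratio of the means was 1.19. Of 11 tested V1 genes 10 had a positive log2 fold change, with a median of 0.32. Of the 11, 3 rose and none fell, beside 7.22% and 7.69% of all tested genes. In 8 of the 11 (72.7%) the groups did not overlap, all with erianin higher, beside 19.5% of all genes. Without DMSO replicate 3 the log2 fold change was positive in all 11, and 8 rose, beside 27.5% of all genes. With the GC trend removed 10 were positive, with a median of 0.30, beside -0.03 for all genes. With both changes together 10 were positive and 6 rose (19.0% of all genes rose), with a median of 0.19.

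ATP6V1E1 (ENSG00000131100, chr22:17592136-17628818 on GRCh38) encodes a subunit of the peripheral stalk that ties V1 to V0. It was at 101, 97.1 and 102 CPM in DMSO replicates 1 to 3 and at 139, 130 and 135 CPM in erianin replicates 1 to 3. The groups were far apart against their own spread. It rose 1.34-fold (log2 fold change 0.43 ± 0.07 SE, adjusted p = 0.00880, edgeR). The call was lost when any 1 of the 3 erianin libraries was left out, with a highest adjusted p of 0.0689. With the GC trend removed the log2 fold change was 0.35, and also without DMSO replicate 3 it was 0.29, with the call kept in both fits.

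ATP6V1A (ENSG00000114573, chr3:113747019-113812056) encodes the catalytic subunit A. It was at 55.0, 52.7 and 41.3 CPM with DMSO and at 64.1, 68.8 and 70.6 CPM with erianin. DMSO replicate 3 was the lowest library, and the groups did not overlap. It rose 1.37-fold (log2 fold change 0.45 ± 0.12 SE, adjusted p = 0.0436, edgeR), and the log2 fold change was 0.33 without DMSO replicate 3. The call was lost without any 1 of the other 5 libraries (adjusted p up to 0.174) and with the GC trend removed, where the log2 fold change was 0.31 with an adjusted p of 0.210 by edgeR. It was also not called with the GC trend removed and without DMSO replicate 3, at a log2 fold change of 0.12.

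ATP6V1G2 (ENSG00000213760, chr6:31544462-31548427), the G subunit gene best known from neurons, had few reads. It had 18, 15 and 18 counts in DMSO replicates 1 to 3, or 0.739, 0.462 and 0.578 CPM, and 45, 57 and 41 counts in the erianin replicates, or 1.32, 1.63 and 1.17 CPM. Each erianin library was above each DMSO library. It rose 2.34-fold (log2 fold change 1.22 ± 0.28 SE, adjusted p = 0.0260, edgeR). Without DMSO replicate 2 or any 1 of the erianin libraries it was no longer called (adjusted p up to 0.114). Other genes share 23.1% of its exonic bases, counting both strands, and whether the counting used strand is not stated in the sources used here.

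The remaining V1 genes had smaller or less even differences. ATP6V1B2, the ATP-binding subunit B gene expressed in most tissues, was at 89.2, 94.6 and 76.4 CPM with DMSO and at 107, 109 and 107 CPM with erianin, with no overlap (log2 fold change 0.32 ± 0.09 SE, adjusted p = 0.0598, edgeR). ATP6V1D, of the central rotor, was at 52.1, 46.7 and 58.4 CPM with DMSO and at 67.3, 61.9 and 66.9 CPM with erianin, again with no overlap (0.32 ± 0.10 SE, adjusted p = 0.0742, edgeR). These 2, like ATP6V1C1, were past the threshold without DMSO replicate 3. By DESeq2 with all libraries ATP6V1B2 and ATP6V1D passed (adjusted p = 0.0330 and 0.0401), and ATP6V1C1 did not (adjusted p = 0.0885). With the GC trend removed the log2 fold changes of ATP6V1B2, ATP6V1D and ATP6V1C1 were 0.30, 0.19 and 0.10. ATP6V1G1 shows how much 1 library could weigh. Its level was 60.6, 62.7 and 99.3 CPM with DMSO and 81.6, 75.9 and 78.5 CPM with erianin, so DMSO replicate 3 was above all other libraries and the groups overlapped. The log2 fold change was 0.08 ± 0.18 SE with all libraries (adjusted p = 0.808) and 0.35 without DMSO replicate 3 (adjusted p = 1.8e-06), both by edgeR. ATP6V1F, a small rotor subunit and the highest V1 gene per length, was at 108, 98.8 and 121 CPM with DMSO and at 110, 101 and 103 CPM with erianin. Its groups overlapped (log2 fold change -0.06 ± 0.09 SE, adjusted p = 0.694, edgeR), and the sign turned to 0.01 without DMSO replicate 3.

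The tested genes of the V0 sector had log2 fold changes from -0.21 to 0.48. Its summed level was 522, 509 and 444 CPM in DMSO replicates 1 to 3 and 542, 545 and 550 CPM in erianin replicates 1 to 3, with DMSO replicate 3 lowest and no overlap. Of 8 tested V0 genes 6 had a positive log2 fold change, with a median of 0.18, and none passed in the main edgeR fit or by DESeq2. ATP6V0D1 had a log2 fold change of 0.19 (adjusted p = 0.108, edgeR). With the GC trend removed it was 0.24 and the gene passed (adjusted p = 0.048, edgeR). Without DMSO replicate 3, 3 rose and 1 fell, beside 27.5% and 27.7% of all genes. ATP6V0B, part of the proton-carrying ring, was at 108, 98.6 and 48.8 CPM with DMSO and at 115, 118 and 123 CPM with erianin. DMSO replicate 3 lay far below all others, and the log2 fold change of 0.48 ± 0.26 SE (adjusted p = 0.257) became 0.20 without it (adjusted p = 0.00098), by edgeR. ATP6V0E1, a small membrane subunit and the highest V0 gene per length, was at 134, 129 and 116 CPM with DMSO and at 145, 136 and 145 CPM with erianin. The groups did not overlap, and the difference did not pass the test (log2 fold change 0.17 ± 0.08 SE, adjusted p = 0.198, edgeR), but did without DMSO replicate 3 (0.11, adjusted p = 0.047). Its paralog ATP6V0E2 had the opposite order, at 52.0, 46.6 and 45.5 CPM with DMSO and at 39.6, 41.2 and 43.6 CPM with erianin (log2 fold change -0.21 ± 0.09 SE, adjusted p = 0.160, edgeR), and was the V0 gene that fell without DMSO replicate 3 (adjusted p = 0.0013).

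Several subunits are encoded by alternative genes, whose levels were compared as CPM per kb of exons. The deposited TPM were not used alone for this purpose. In 9978 of 10482 genes (95.2%) the length behind the TPM equalled, to within 0.1%, the sum of the lengths of all GENCODE 29 transcripts of the gene, so a gene with many annotated transcripts has a lower TPM. The tested members have 2 to 69 transcripts. Over the 55 tested members the ranks of mean TPM and mean CPM per kb had a correlation of 0.937, a description across genes.

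**Figure D2:**
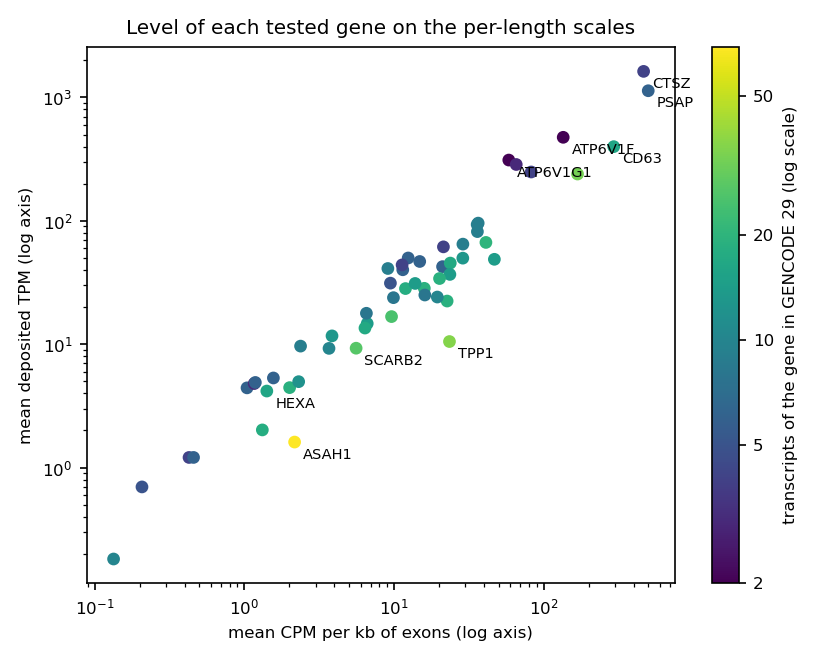
Mean deposited TPM (vertical log axis) against mean CPM per kb of exons (horizontal log axis) over the 6 libraries for the 55 tested members, coloured by the number of transcripts of the gene in GENCODE 29. TPP1, with 36 transcripts, lies lowest against its CPM per kb. ASAH1, with 69, also lies low, and ATP6V1F and ATP6V1G1, with 2 transcripts each, lie high.

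One gene of each subunit family held most of the reads. For subunit a of V0, which anchors the pump, ATP6V0A1 was at 9.63 ± 0.26 CPM per kb (SD, n = 3 DMSO libraries), ATP6V0A2 at 2.44 ± 0.20 and ATP6V0A4, best known from kidney, at 0.114 ± 0.031. For subunit B, ATP6V1B2 was at 11.1 ± 1.20 CPM per kb with DMSO and 13.8 ± 0.16 with erianin, while the kidney gene ATP6V1B1 had 0 to 6 counts in a library and was not tested. For subunit C, ATP6V1C1 was at 13.4 ± 1.80 CPM per kb with DMSO and ATP6V1C2 at 0.175 ± 0.058.

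For subunit d, ATP6V0D1 was at 11.2 ± 0.26 CPM per kb with DMSO, and ATP6V0D2, best known from osteoclasts, had 0 to 8 counts in a library and was not tested. For subunit E, ATP6V1E1 was at 31.2 ± 0.86 CPM per kb with DMSO and 41.9 ± 1.42 with erianin, and ATP6V1E2 at 0.913 ± 0.152 and 1.17 ± 0.063. For subunit G, ATP6V1G1 was at 56.9 ± 16.7 CPM per kb with DMSO and ATP6V1G2 at 0.276 ± 0.065. The order within each of these families was the same with erianin, so the 2.34-fold increase of ATP6V1G2 left it far below ATP6V1G1, at 0.640 ± 0.110 against 60.3 ± 2.2 CPM per kb. ATP6V1G3, the neighbour gene ATP6V1FNB and the readthrough gene ATP6V1G2-DDX39B had no count in any library. For ATP6V1G3 and ATP6V1FNB, a count of 0 still allows an expected count of up to about 3 per library, by counting error alone. Other genes on the same strand share 100% of the exonic bases of ATP6V1G2-DDX39B, so its count of 0 may not limit its level. ATP6V0C, which encodes the main subunit of the proton-carrying ring, had only 10 to 35 counts per library. Exons of other genes on the same strand cover 72.1% of its exonic bases, and the part of this overlap in its count was not tested.

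**Figure D3:**
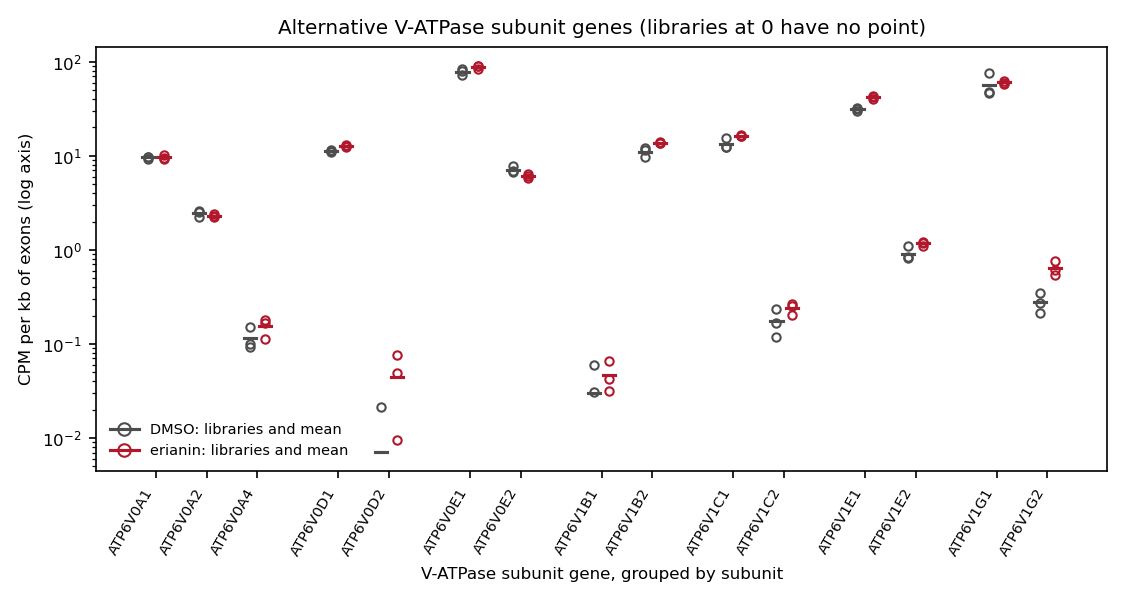
CPM per kb of exons (vertical log axis) of alternative V-ATPase subunit genes, in the 3 DMSO (grey) and 3 erianin (red) libraries, with group means as bars. ATP6V1E1 stands above ATP6V1E2 and ATP6V1G1 above ATP6V1G2 in every library.

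Cathepsins, the proteases of the lysosome, moved in both directions. The summed level of the 11 peptidase genes was 3258, 3299 and 3150 CPM in DMSO replicates 1 to 3 and 2738, 2806 and 2769 CPM in erianin replicates 1 to 3, with a ratio of means of 0.856 and no overlap. Most of that sum came from CTSB and CTSZ. Of the 11 genes, CTSS and CTSK rose, CTSZ fell, and 7 had a negative log2 fold change, with a median of -0.06.

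CTSS (ENSG00000163131, chr1:150730196-150765957) encodes cathepsin S, a cysteine protease known for antigen processing. It was at 5.17, 4.81 and 4.62 CPM with DMSO and at 7.88, 8.76 and 8.45 CPM with erianin. The groups lay well apart and each varied little. It rose 1.72-fold (log2 fold change 0.78 ± 0.12 SE, adjusted p = 0.00793, edgeR), and was called in 4 of the 6 fits with 1 library left out. Without erianin replicate 2 or erianin replicate 3 the call was lost, with an adjusted p of at most 0.0578. With the GC trend removed the log2 fold change was 0.63, and also without DMSO replicate 3 it was 0.48, under the threshold for a DEG. The adjusted p stayed under 0.05 in both fits.

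CTSK (ENSG00000143387, chr1:150796208-150808323), the neighbouring gene, encodes cathepsin K, the collagen-degrading protease of osteoclasts. It had 40, 44 and 59 counts in DMSO replicates 1 to 3, or 1.64, 1.36 and 1.89 CPM, and 94, 84 and 110 counts in erianin replicates 1 to 3, or 2.75, 2.40 and 3.14 CPM. The lowest erianin library was above the highest DMSO library. It rose 1.70-fold (log2 fold change 0.76 ± 0.20 SE, adjusted p = 0.0441, edgeR). The call held in the fit without DMSO replicate 3 and was lost in the other 5 fits with 1 library left out (adjusted p up to 0.182). The macrophage marker sum given above moved in the same direction as CTSS and CTSK, and its part in these results was not tested.

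CTSZ (ENSG00000101160, chr20:58995185-59007247) encodes cathepsin Z, a carboxypeptidase, and was the most abundant member by deposited TPM. It was at 1016, 1042 and 1107 CPM with DMSO and at 841, 840 and 853 CPM with erianin. The erianin libraries were close to each other and all below DMSO. It fell to 0.800 of the DMSO level (log2 fold change -0.32 ± 0.07 SE, adjusted p = 0.0212, edgeR). The call was lost without DMSO replicate 2 or any 1 erianin library (adjusted p up to 0.110) and with the GC trend removed (log2 fold change -0.27).

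CTSB, a cysteine protease and the cathepsin with most reads, was at 1427, 1437 and 1222 CPM with DMSO and at 1125, 1178 and 1130 CPM with erianin. All erianin libraries were below all DMSO libraries, but the test was not passed (log2 fold change -0.25 ± 0.09 SE, adjusted p = 0.0894, edgeR) except without DMSO replicate 3 (-0.33, adjusted p = 1.2e-08). TPP1, a tripeptidyl peptidase, was at 150, 147 and 228 CPM with DMSO and at 128, 139 and 131 CPM with erianin, so DMSO replicate 3 set most of its log2 fold change of -0.40 (adjusted p = 0.151, edgeR), which was -0.17 without it. For CTSD, the aspartic protease cathepsin D, DMSO replicate 3 was low instead. It was at 146, 154 and 101 CPM with DMSO and at 156, 160 and 163 CPM with erianin, and the log2 fold change of 0.26 (adjusted p = 0.290, edgeR) was 0.08 without that library. CTSD passed with the GC trend removed (0.35, adjusted p = 0.015, edgeR). Other genes share 52.7% of the exonic bases of CTSD, counting both strands. CTSF, a cysteine protease, was at 97.9, 101 and 67.9 CPM with DMSO and at 80.0, 78.2 and 77.0 CPM with erianin, so the groups overlapped through DMSO replicate 3. Its log2 fold change of -0.18 (adjusted p = 0.453, edgeR) was -0.35 without that library, where it fell (adjusted p = 3.0e-07). CTSA, CTSC, CTSH and CTSL had log2 fold changes from -0.08 to 0.08, and their groups overlapped.

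Glycosidases, which remove sugars from glycoproteins, glycolipids and glycogen, held 3 of the 4 members that fell. Of 10 genes, MAN2B1, GAA and GUSB fell and none rose, beside 7.69% and 7.22% of all tested genes. A negative log2 fold change was seen in 7, and the median was -0.15. In 5 of the 10 all erianin libraries were below all DMSO libraries, and in 2 they were all above (19.3% and 19.5% of all genes). Leaving out DMSO replicate 3, 6 fell and 1 rose, beside 27.7% and 27.5% of all genes. Median GC content was 55.7% in this group. With the GC trend removed the median log2 fold change was -0.08, beside -0.03 for all genes. On log2(TPM + 1) none of the 10 was called by limma, 6 had a positive log2 fold change, and the median of 0.06 lay below that of all genes. Their summed level was 763, 792 and 638 CPM with DMSO and 652, 659 and 653 CPM with erianin. DMSO replicate 3 was the lowest library of all, so the sums of the groups overlapped.

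MAN2B1 (ENSG00000104774, chr19:12646511-12666742) encodes the lysosomal alpha-mannosidase. It was at 147, 155 and 132 CPM with DMSO and at 110, 112 and 110 CPM with erianin. The groups did not overlap, and it fell to 0.764 of the DMSO level (log2 fold change -0.39 ± 0.08 SE, adjusted p = 0.0190, edgeR). Other genes on the same strand share 21.2% of its exonic bases, and the part of this overlap in its count was not tested.

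GAA (ENSG00000171298, chr17:80101556-80119879) encodes the acid alpha-glucosidase, which degrades glycogen. It was at 214, 227 and 184 CPM with DMSO and at 161, 164 and 164 CPM with erianin. The groups did not overlap, and it fell to 0.784 of the DMSO level (log2 fold change -0.35 ± 0.09 SE, adjusted p = 0.0388, edgeR). Of the 6 genes that passed the test and had a promoter window, it alone held the core E-box, shown above at both sites.

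GUSB (ENSG00000169919, chr7:65960684-65982314) encodes beta-glucuronidase. It was at 104, 110 and 97.3 CPM with DMSO and at 83.8, 83.3 and 87.6 CPM with erianin. Again the groups were separate, and it fell to 0.817 of the DMSO level (log2 fold change -0.29 ± 0.08 SE, adjusted p = 0.0417, edgeR). MAN2B1, GAA and GUSB were each called without DMSO replicate 3 and lost the call without any 1 of the other 5 libraries, with adjusted p-values up to 0.103, 0.149 and 0.168. Each kept the call with the GC trend removed.

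NEU1, the sialidase that acts in a complex with CTSA, went the other way. It was at 99.8, 95.1 and 65.0 CPM with DMSO and at 121, 121 and 118 CPM with erianin, so all erianin libraries were higher and DMSO replicate 3 was the lowest. The difference did not pass the test (log2 fold change 0.47 ± 0.15 SE, adjusted p = 0.0811, edgeR) but passed without DMSO replicate 3 (0.30, adjusted p = 2.6e-06) and with the GC trend removed (0.53, adjusted p = 0.015). It also passed by DESeq2 with all libraries (adjusted p = 0.0435). GLB1, the beta-galactosidase of the same complex, was at 101, 98.0 and 84.8 CPM with DMSO and at 80.3, 83.3 and 80.9 CPM with erianin, with no overlap and an adjusted p of 0.141 by edgeR. HEXA and NAGLU had DMSO replicate 3 as the lowest library, at 12.7 and 21.1 CPM, and their log2 fold changes moved from -0.05 and -0.10 to -0.26 and -0.30 without it.

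**Figure D4:**
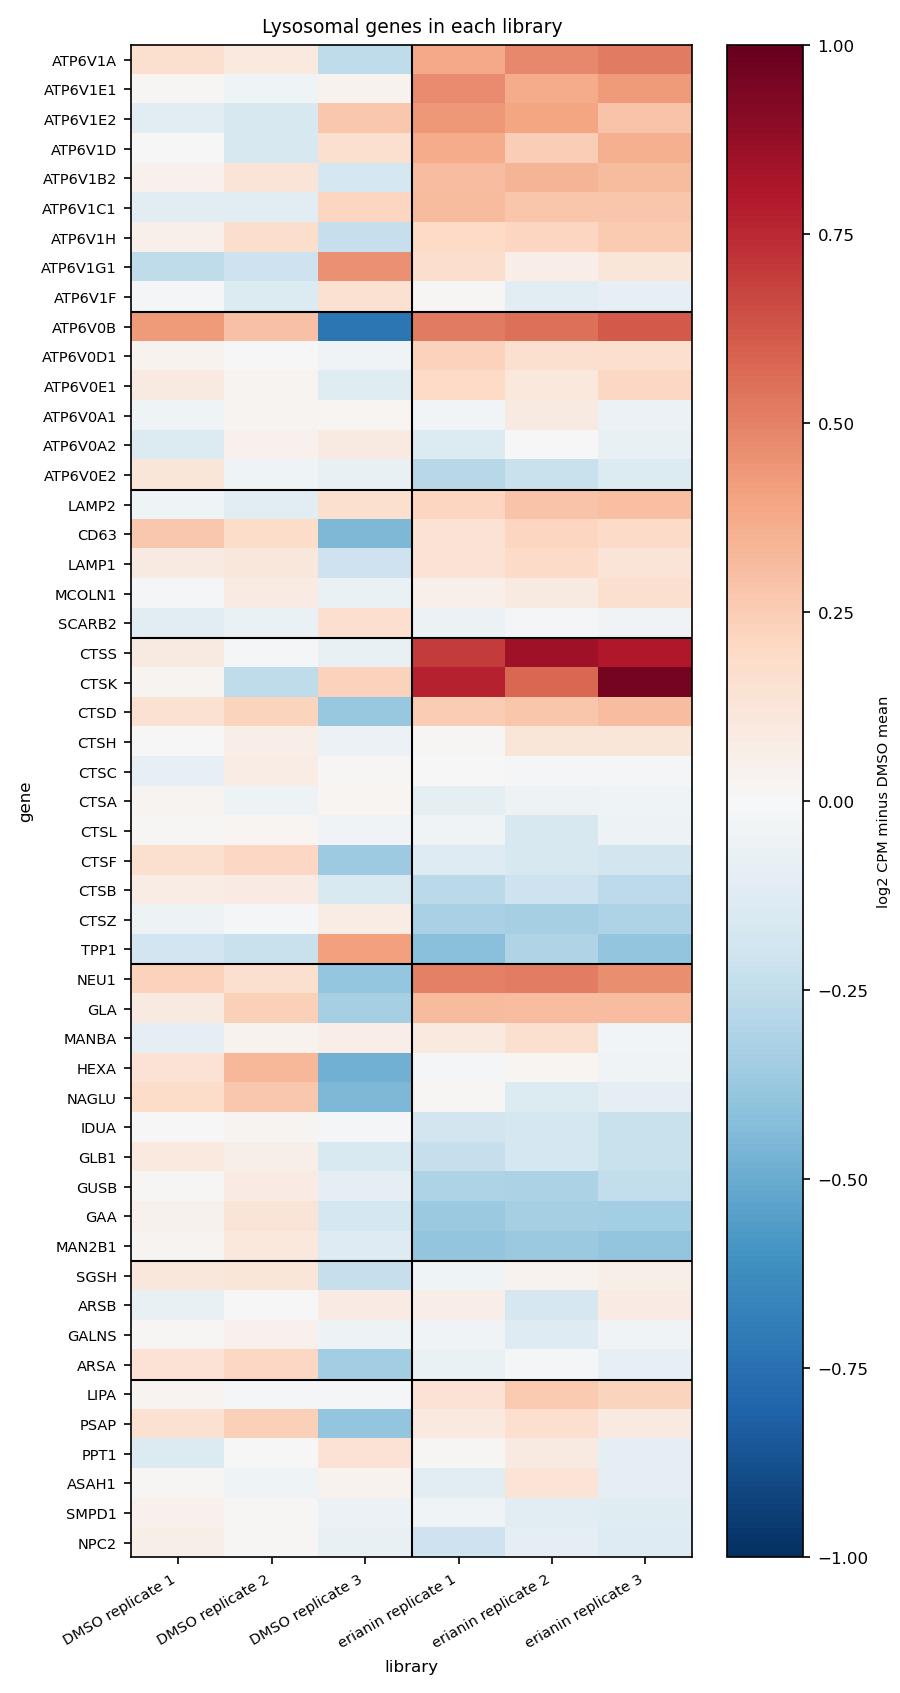
Log2 CPM of each member in each library minus the mean of the 3 DMSO libraries (colour, red higher and blue lower), for tested members with a mean of at least 1 CPM, ordered by role and log2 fold change. The third DMSO column differs from the first and second in many rows, among them ATP6V0B, ATP6V1G1, CD63, PSAP and TPP1, and the erianin columns resemble each other.

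Sulfatases, lipid-handling proteins and membrane proteins held no gene that passed the test. By edgeR the 4 tested sulfatases had log2 fold changes from -0.08 to 0.01, and their groups overlapped. ARSA, which removes sulfate from sulfatide, was at 52.8, 55.1 and 37.5 CPM with DMSO and at 45.5, 47.2 and 45.1 CPM with erianin. DMSO replicate 3 lay below and the others above all erianin libraries (log2 fold change -0.08 ± 0.15 SE, adjusted p = 0.773, edgeR), and without it ARSA fell (-0.24, adjusted p = 0.00096).

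Among 6 genes for lipid hydrolases and lipid-handling proteins the median was -0.01. PSAP, the precursor of the saposins, which present lipids to their hydrolases, had the most reads of all members. It was at 1714, 1816 and 1174 CPM with DMSO and at 1648, 1735 and 1642 CPM with erianin. The groups overlapped, and the log2 fold change of 0.10 ± 0.16 SE (adjusted p = 0.730, edgeR) turned to -0.08 without DMSO replicate 3. LIPA, the acid lipase, was at 30.4, 29.5 and 29.6 CPM with DMSO and at 32.9, 35.7 and 34.7 CPM with erianin. NPC2, the cholesterol carrier, was at 109, 105 and 99.0 CPM with DMSO and at 90.3, 97.4 and 95.5 CPM with erianin. Neither pair of groups overlapped, and the adjusted p-values were 0.134 and 0.234 by edgeR. Both passed without DMSO replicate 3, LIPA upward (log2 fold change 0.20) and NPC2 downward (-0.18).

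Of the 5 membrane protein genes 4 had a positive log2 fold change, with a median of 0.15. CD63, a tetraspanin of late endosomes and lysosomes, was at 862, 815 and 524 CPM with DMSO and at 795, 833 and 820 CPM with erianin. The groups overlapped, and the log2 fold change of 0.15 ± 0.17 SE (adjusted p = 0.600, edgeR) turned to -0.04 without DMSO replicate 3. LAMP1, an abundant glycoprotein of the lysosomal membrane, was at 378, 386 and 309 CPM with DMSO and at 393, 406 and 389 CPM with erianin, without overlap (0.15 ± 0.10 SE, adjusted p = 0.347, edgeR). Its log2 fold change was 0.047 without DMSO replicate 3. LAMP2, its relative, was at 55.2, 52.5 and 63.4 CPM with DMSO and at 65.8, 69.2 and 69.8 CPM with erianin, also without overlap (0.26 ± 0.09 SE, adjusted p = 0.104, edgeR), and rose without DMSO replicate 3 (0.34, adjusted p = 4.6e-06). With the GC trend removed LAMP2, whose transcripts have a GC content of 40.4%, had a log2 fold change of 0.09. The lysosomal calcium channel MCOLN1 and the receptor SCARB2 had log2 fold changes of 0.10 and -0.04, and their groups overlapped.

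The E-box and the direction were set side by side as a description. The 13 tested members with CACGTG had log2 fold changes from -0.35 to 0.48, with a median of 0.10, 8 of them positive. The 25 tested members with a promoter window and no CACGTG ran from -0.40 to 1.22, with a median of -0.02, 10 of them positive. The V1 genes, the role with the highest median, held the core in 1 of 8 windows, that of ATP6V1G1 shown above.

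Other genes of the lysosome were read from the same fit. Of 109 listed, 98 were tested, and 3 rose and 10 fell (3.06% and 10.2%, beside the shares of all genes given above). The fit without DMSO replicate 3 had 23 that rose and 33 that fell, beside 27.5% and 27.7% of all genes. SCPEP1, a serine carboxypeptidase, LAPTM4A, a lysosomal membrane protein, and TCIRG1 rose. TCIRG1 encodes the further a subunit of the V-ATPase known from osteoclasts, and was at 0.164, 0.123 and 0.128 CPM with DMSO and at 0.293, 0.487 and 0.685 CPM with erianin, which is under 1 CPM in all libraries (log2 fold change 1.81 ± 0.48 SE, adjusted p = 0.042, edgeR). It had 4 counts in each DMSO library and 10, 17 and 24 in the erianin libraries, so it passed the low-count filter only through the erianin libraries and had to differ to be tested. It was called in 1 of the 6 fits with 1 library left out, the one without DMSO replicate 3. It was not called without that filter, and had too few counts to be tested where at least 10 were asked of every library.

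DEGs that fell were HGSNAT, ARSG, TMEM175, TPCN1 and RRAGB. HGSNAT, the membrane acetyltransferase of heparan sulfate breakdown, was at 126, 119 and 123 CPM with DMSO and at 66.5, 75.1 and 67.4 CPM with erianin (log2 fold change -0.82 ± 0.08 SE, adjusted p = 0.0020, edgeR). The sulfatase ARSG was at 19.2, 23.4 and 15.6 CPM with DMSO and at 9.43, 11.1 and 11.2 CPM with erianin (-0.88 ± 0.17 SE, adjusted p = 0.015, edgeR). Both were separate between the groups, and both act in the breakdown of heparan sulfate. Among the members that act there too, GUSB fell, as given above, while NAGLU, SGSH and IDUA did not pass the test. Their log2 fold changes were -0.10, 0.01 and -0.19 (adjusted p = 0.754, 0.971 and 0.244, edgeR). The ion channel genes TPCN1 and TMEM175 fell by 0.66 and 0.70 on the log2 scale, and RRAGB, a GTPase of nutrient sensing at the lysosome, fell by 0.51. Others that fell were the peptidase DPP7, GNPTG, which helps to tag enzymes for delivery to the lysosome, the cystine transporter CTNS, and RPTOR of the mTORC1 complex.

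The transcription factors of the E-box did not pass the test. TFEB was at 13.1, 13.9 and 10.5 CPM with DMSO and at 11.1, 10.3 and 12.5 CPM with erianin (adjusted p = 0.56, edgeR). TFE3 was at 169, 164 and 157 CPM with DMSO and at 161, 156 and 154 CPM with erianin (adjusted p = 0.60, edgeR). MITF, of the same family, was at 1.97, 1.88 and 2.83 CPM with DMSO and at 3.34, 3.52 and 2.74 CPM with erianin (adjusted p = 0.15, edgeR). In all of them the groups overlapped. Without DMSO replicate 3, TFEB fell (log2 fold change -0.26, adjusted p = 0.034) and MITF rose (0.73, adjusted p = 0.0043). These are RNA levels, and the activity of these factors was not measured here. The cystatins, inhibitors of cathepsins, had 3 tested genes of 7 and none passed. The lists of V-ATPase accessory genes, of enzyme sorting and of nutrient sensing had 1 of 11, 0 of 19 and 0 of 19 tested genes that rose, and 0, 1 and 2 that fell.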

How the data were processed

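RNA of CAL62 cells was sequenced in 3 DMSO and 3 erianin libraries, on the BGISEQ-500 by the paper and with Illumina library protocols by the labels. The authors deposited raw counts per gene and, from the same counts, TPM values. Over the rows with an identifier, the TPM columns sum to 59.1% to 78.3% of their nominal total. The submitters' processing notes name fastp 0.23.2, STAR 2.7.10, featureCounts 2.0.1, StringTie 2.2.1 and GRCh38, and the strand setting is not given in the sources used here. Of 65807 rows, 26480 carried no identifier and were left out (0.00385% to 0.00515% of counts). Of rows sharing an identifier, the one with most counts was taken.

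Counts were tested with edgeR 4.0.16 (TMM, filterByExpr by group, glmQLFit, glmQLFTest) in R 4.3.3 over all genes, two-sided, with Benjamini-Hochberg adjustment over 12821 genes. SE was derived from the F statistic. Alternatives used DESeq2 1.42.0, limma 3.58.1 on log2(TPM + 1), on log2(TPM + 0.1) and without its filter of a mean TPM of 1, RLE and upper-quartile factors, no low-count filter, at least 10 counts in every library, the replicate number as a block, each library left out, and fold-change thresholds of none and 1. Removal of GC trends (loess, span 0.5) and CPM per kb were added after seeing the data. The steps were tested on simulated counts. Coordinates, transcript lengths and GC came from GENCODE 29, promoters from RefSeq. Members and lists were chosen with earlier results of these data known. Members were named where called, or most abundant by TPM in their role, and others by mean CPM, while ATP6V1G1, ATP6V0B, TPP1, HEXA and NAGLU were named for DMSO replicate 3 after their values were seen. The 3 replicates are described as replicate experiments, and p-values measure the spread between them. Depth limits genes under 1 CPM, and the limit given for counts of 0 covers counting error only. Tables and figures were made with pandas 2.3.3 and matplotlib 3.10.9 under Python 3.11.15. Some genes of the marker and other lysosomal lists are counted but not reported by name here.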

Additional observations from a re-analysis of the deposited data

How the results depend on the processing

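The number of members called depended on the processing, as did the share of all genes called, and the cause was not tested. The share of all genes that rose was 7.22% in the main analysis, 10.4% by DESeq2, 4.30% without the low-count filter, 17.3%, 16.9% and 11.2% in the limma fits listed next and 19.0% with the GC trend removed and without DMSO replicate 3. The share that fell was 7.69%, 11.3%, 5.25%, 2.34%, 2.31%, 1.30% and 27.6% in the same order. It was 5.90% with upper-quartile factors. Members that rose numbered 5 in the main analysis, 8 by DESeq2, 3 without the low-count filter, 12, 12 and 11 in the limma fits on TPM (pseudocount 1, pseudocount 0.1, and no low-value filter), and 14 with the GC trend removed and without DMSO replicate 3. Members that fell numbered 4, 2 with upper-quartile factors, 0 in each limma fit, and 14 with the GC trend removed and without DMSO replicate 3. DEGs higher numbered 3, and 7, 8 and 6 in the limma fits, 1 at a threshold of 1 and 5 without one. DEGs lower numbered 0, and 4 without a threshold. With 1 library left out these counts ran from 0 to 16 higher, 0 to 13 lower and 0 to 4 DEGs higher, in each case highest without DMSO replicate 3.

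Of the other lysosomal genes, 3 rose, against 7 by DESeq2, 6 with upper-quartile factors, 12, 12 and 11 in the limma fits, 5 with the GC trend removed and 15 also without DMSO replicate 3, and 0 to 23 with 1 library left out. The 10 that fell became 2 in each limma fit, 34 with the GC trend removed and without DMSO replicate 3, and 2 to 33 with 1 library left out. Their 1 DEG higher became 2 by DESeq2, 3 with upper-quartile factors, 0 without the low-count filter, 5, 8 and 5 in the limma fits, 2 with the GC trend removed, 3 also without DMSO replicate 3, 3 without a threshold, and 0 to 6 with 1 library left out. Their 5 DEGs lower became 1 in each limma fit, 0 at a threshold of 1, 10 without one, and 2 to 5 with 1 library left out.

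Replicate numbers did not pair the samples (correlations of 0.00138, 0.0253 and -0.0329). With the replicate block 2 members rose, 0 fell and 1 was a DEG, and 0 other genes rose, 4 fell, 0 were DEGs higher and 3 lower, beside 3.10% of all genes that rose and 2.71% that fell. The sign turned without DMSO replicate 3 for PSAP (-0.080), CD63 (-0.044) and ATP6V1F (0.014), for ATP6V1F also in the limma fits (0.14, 0.14, 0.14) and with the GC trend removed and without DMSO replicate 3 (0.12), and for ARSA in the limma fits (0.13, 0.14, 0.13), without DMSO replicate 2 (0.023) and with the GC trend removed (0.016). With 1 library left out the log2 fold change ran from -0.080 to 0.21 for PSAP, -0.044 to 0.28 for CD63, -0.13 to 0.014 for ATP6V1F and -0.24 to 0.023 for ARSA. For the 14 members chosen by being called or most abundant in their role, 158 other values kept direction and side of the threshold, 66 lost the call and 2 gained one. The other members are not in these counts. Over all 55 tested members, 16 rose and 13 fell without DMSO replicate 3.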
